A study of Mus musculus with 11 samples.

Results

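The genes described here are 8 inhibitors of mitogen-activated protein (MAP) kinase signalling, Dusp1, Dusp2, Dusp4, Dusp5, Dusp6, Dusp10, Spry1 and Spry2, read by symbol from the 52997 genes of the deposited count table in regulatory T (Treg) cells that carried the vTreg53 T cell receptor. This receptor is a transgene cloned from 1 Treg cell clone of visceral adipose tissue (VAT), and Fat1562 is a peptide that the receptor recognises. Foxp3-GFP+ vTreg53 cells from the pooled spleen and lymph nodes (Spl/LN) of CD45.2+ male donors were transferred into CD45.1+ male C57BL/6 mice, which were primed 6 weeks later with adjuvant with or without Fat1562 and boosted after 1 more week. Transferred Treg cells that stained for both chains of the receptor (Vα2+Vβ4+) were sorted in 2 rounds from Spl/LN or from epididymal VAT 1 week after the boost, and RNA of 1000 cells was sequenced per library. There were 3 Spl/LN adjuvant alone libraries, 3 Spl/LN adjuvant/Fat1562, 2 VAT adjuvant alone and 3 VAT adjuvant/Fat1562, all labelled as males of 15 weeks. GEO's labels call the controls PBS_unimmunized while the methods describe adjuvant without peptide, and if the controls received PBS then the effects of the peptide and of the adjuvant cannot be told apart. The methods describe a collagenase digestion of VAT and give no preparation of Spl/LN, so in every comparison of VAT with Spl/LN the tissue and the preparation of its cells cannot be told apart.

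MAP kinases relay signals from the T cell receptor, cytokine receptors and stress, and are switched on by phosphorylation of a threonine and a tyrosine. Dual-specificity phosphatases (DUSPs) remove both phosphates: DUSP1, DUSP2, DUSP4 and DUSP5 reside in the nucleus, DUSP6 is cytoplasmic and prefers ERK, and DUSP10 prefers JNK and p38. Sprouty proteins act further upstream, between receptors and the MAP kinase cascade. Many of these genes are themselves induced by MAP kinase signalling, which makes them feedback inhibitors.

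On GRCm38 the 8 genes lie on 8 chromosomes: Dusp1 on the minus strand of chromosome 17 from 26505590 to 26562128, Dusp2 on chromosome 2 from 127336159 to 127338376, Dusp4 on chromosome 8 from 34807297 to 34819894 and Dusp5 on chromosome 19 from 53529109 to 53542431. Dusp6 spans 99263231 to 99267489 of chromosome 10, Dusp10 184013302 to 184075636 of chromosome 1, Spry1 37639947 to 37644598 of chromosome 3 and Spry2, on the minus strand, 105891947 to 105896819 of chromosome 14.

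The libraries held 4490242 to 6570057 counts. Foxp3, the defining factor of Treg cells, averaged 7440, 7100, 9833 and 8818 normalized counts in Spl/LN adjuvant alone, Spl/LN adjuvant/Fat1562, VAT adjuvant alone and VAT adjuvant/Fat1562, and Cd4 was counted in every library. A normalized count is a count scaled to the mean library size after correction by the trimmed mean of M-values (TMM). The 8 B cell markers summed to 39035 in VAT adjuvant alone replicate 2 and to 6901 in replicate 1, against 6593 to 18415 in the other groups, and nearly all of this was Ighm and Igkc, whereas in any library Ms4a1 had at most 6 counts and Cd79a 6 to 28. Cd79b had 42 to 223 counts, averaging 164, 151, 107 and 66.4 normalized counts in the 4 groups in the order above. Macrophage, adipocyte and stromal markers summed to at most 148, 135 and 50.6 normalized counts in any library. The 6 endothelial markers, mostly Pecam1, summed to 253 to 315 in VAT adjuvant alone and to 431 to 612 in the other groups, and the 6 CD8 T and NK cell markers to 96.7 to 195.

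Stretches of promoter are shown for 4 phosphatases, Dusp1, Dusp2 and Dusp5 because they hold a motif of an inducible transcription factor and Dusp10 because it changed alongside Dusp1 and Dusp5 and holds none. They are from RefSeq on GRCm38.p6, run 5′ to 3′ from 200 to 51 bases before the annotated start of the gene, and carry motif matches in capitals.
Dusp1, chr17:26508523-26508672, minus strand: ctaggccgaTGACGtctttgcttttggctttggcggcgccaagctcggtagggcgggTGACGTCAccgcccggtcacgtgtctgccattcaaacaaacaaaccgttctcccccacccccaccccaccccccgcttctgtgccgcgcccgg
Dusp2, chr2:127335959-127336108, plus strand: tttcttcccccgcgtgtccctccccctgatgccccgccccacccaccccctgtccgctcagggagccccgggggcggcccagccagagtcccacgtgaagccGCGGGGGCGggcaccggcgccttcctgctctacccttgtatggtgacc
Dusp5, chr19:53528945-53529094, plus strand: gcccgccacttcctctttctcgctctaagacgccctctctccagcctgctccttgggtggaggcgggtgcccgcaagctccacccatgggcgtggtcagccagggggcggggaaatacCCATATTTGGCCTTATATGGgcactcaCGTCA
Dusp10, chr1:184034181-184034330, plus strand: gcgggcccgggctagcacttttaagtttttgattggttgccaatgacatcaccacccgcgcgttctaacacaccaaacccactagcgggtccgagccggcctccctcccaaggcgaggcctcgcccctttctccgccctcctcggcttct

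The capitals in Dusp1 mark the full cAMP response element TGACGTCA, bound by CREB and ATF factors, and upstream of it the shorter core TGACG. Over 250 bases before the start and on both strands, the full element was held by 1.55% of 32851 mouse promoters and the core, which the full element contains, by 17.8%. In Dusp5 they mark a pair of adjoining CArG boxes, the motif of serum response factor, at 82 to 63 bases before the start, and a core on the opposite strand, CGTCA; a CArG box was held by 1.47% of promoters. In Dusp2 they mark a match to GCGNGGGCG, the motif of EGR factors, held by 4.70% of promoters. The 250 bases were 70.4% G or C in Dusp2, 68.4% in Dusp1 and 64% in Dusp5, against a median of 52.4% over all promoters. The shares of promoters holding a motif were not matched for this. An AP-1 site, TGANTCA, held by 6.75% of promoters, and an ETS site, CCGGAA, held by 12%, were in none of the 7 members with a promoter sequence. Dusp6, Dusp10, Spry1 and Spry2 held none of the motifs searched. In the GENCODE annotation, none of the 4 printed stretches overlaps an exon of its own gene, those of Dusp1 and Dusp10 lie inside the span of the gene, and that of Dusp5 lies in an exon of the antisense transcript AC137853.2. Of the 250 bases before the Dusp10 start, 171 lie in an exon of another gene, 1700056E22Rik.

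**Figure D1:**
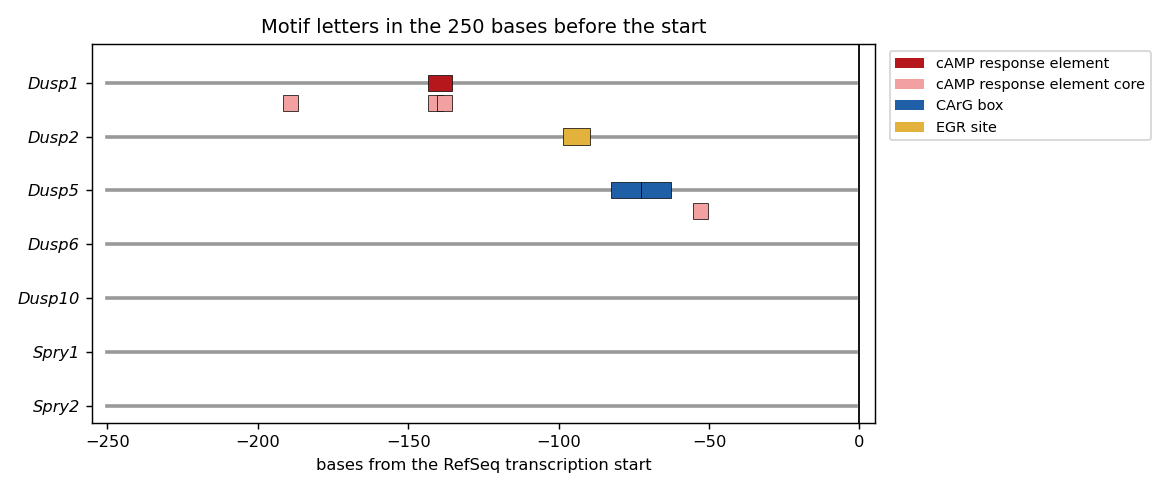
Motif matches in the 250 bases before the RefSeq start of 7 members (horizontal axis, bases from the start; 1 line per gene; coloured boxes are matches, with cAMP response element cores set below the line). Only Dusp1, Dusp2 and Dusp5 hold matches, of 3 different motif families.

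Per kilobase of exon, where levels of different genes can be compared, Dusp1 led in Spl/LN adjuvant alone with 504 normalized counts per kb, followed by Dusp2 with 319, Dusp5 with 97.8, Dusp4 with 67.3 and Dusp10 with 46.1, none of whose libraries overlapped with the next. Dusp6, with 23.7, and Spry1, with 9.14, did overlap. In VAT adjuvant alone the order was Dusp1 with 9234 normalized counts per kb, Dusp5 with 562, Dusp4 with 338, Dusp10 with 332 and Dusp2 with 128, and the libraries of Dusp4 and Dusp10 overlapped. Of these 5 phosphatases in mice given adjuvant alone, Dusp2 was thus next to the highest in Spl/LN and the lowest in VAT.

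With Fat1562 the order below Dusp1 altered in VAT, and the leading genes of Spl/LN were no longer separated. In Spl/LN, Dusp2 with 280 and Dusp1 with 264 normalized counts per kb were not separated by their libraries. In VAT adjuvant/Fat1562, Dusp1 remained first with 3796, while Dusp4 with 384, Dusp5 with 317 and Dusp2 with 304 formed a group whose neighbours overlapped, above Dusp10 with 130. As a share of the summed level of the 8 genes per kb, Dusp1 made up 42.3 to 49.6% in the Spl/LN adjuvant alone libraries and 31.8 to 36.6% with Fat1562, against 85.8 to 87.1% and 74.2 to 79.2% in VAT. The ratio of Dusp1 to Dusp2 per kb ran from 67.0 to 77.2 in VAT adjuvant alone and from 9.32 to 14.6 in VAT adjuvant/Fat1562, and in Spl/LN from 0.780 to 1.88.

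**Figure D2:**
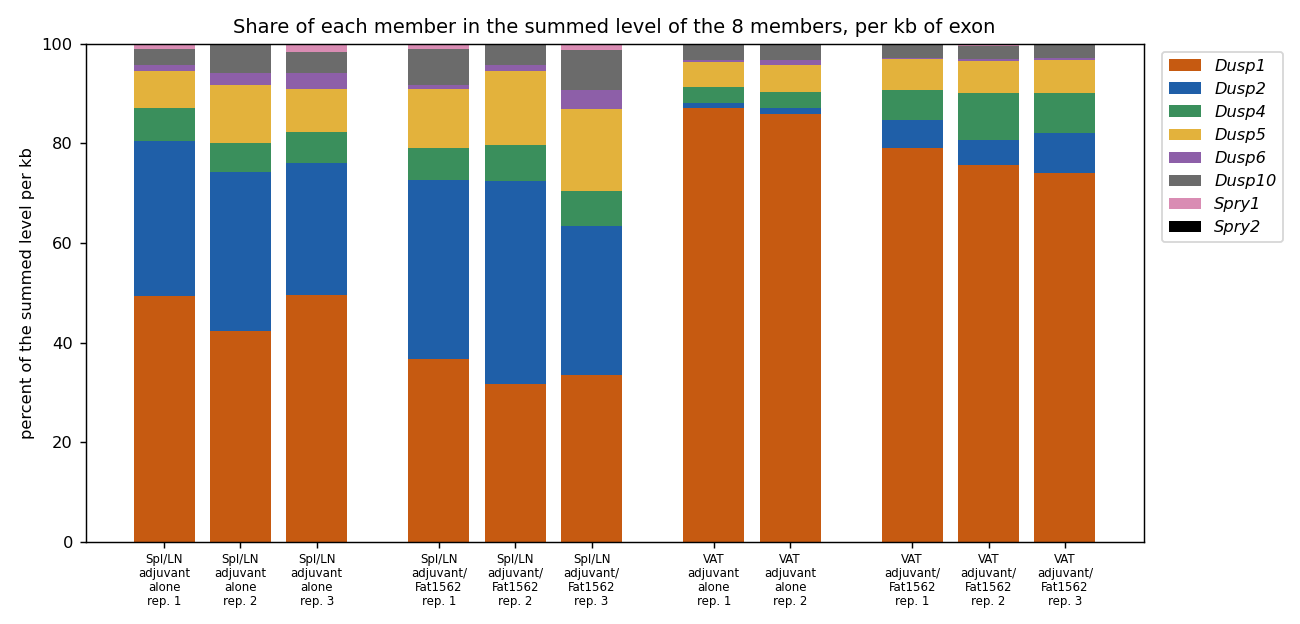
Share of each member in the summed level of the 8 members per kb of exon (vertical axis, percent), with 1 stacked bar per library. Dusp1 fills 85.8% or more of both VAT adjuvant alone bars and under 50% of every Spl/LN bar.

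Dusp1, the phosphatase of ERK, JNK and p38 that is induced by stress and mitogens, had 1902, 1430 and 1675 normalized counts in the Spl/LN adjuvant alone libraries and 982, 890 and 751 in Spl/LN adjuvant/Fat1562. It had 34200 and 26945 in VAT adjuvant alone and 14892, 11971 and 10842 in VAT adjuvant/Fat1562. No pair of neighbouring groups overlapped, and every VAT library stood above every Spl/LN library.

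Between tissues, 6 of the 7 members tested passed the test in mice given adjuvant alone (edgeR's quasi-likelihood test with Benjamini-Hochberg adjustment over 12932 genes, adjusted p under 0.05), 5 higher and 1 lower in VAT, where 16.3% of all genes tested passed, 9.09% higher and 7.17% lower. Under quantile normalization the balance over all genes turned, to 1141 higher and 1293 lower. The median log2 difference of the 7 was 2.33, against -0.03 over all genes tested. Spry2, with at most 3 counts in any library, was below the filter on low counts. Dusp1 was 18.3-fold higher in VAT (log2 difference 4.19 ± 0.15 SE, adjusted p = 3.07e-12). Fewer cells of a type and less RNA per cell cannot be told apart in such bulk libraries.

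Dusp4 and Dusp5, nuclear phosphatases that favour ERK among their targets, were also higher in VAT. Dusp4 had 210, 166 and 177 normalized counts in Spl/LN adjuvant alone and 1013 and 838 in VAT adjuvant alone, 5.02-fold higher (log2 difference 2.33 ± 0.16 SE, adjusted p = 9.67e-09). Dusp5 rose from 215, 295 and 215 to 1487 and 1295, 5.76-fold higher (2.53 ± 0.16, adjusted p = 3.36e-09). Of the Dusp5 exon sequence, 20.9% of 38-base stretches also lie in an annotated antisense transcript, and the library type does not mark strand, so reads there cannot be assigned to 1 of the 2 genes.

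Dusp10, the phosphatase of JNK and p38, rose from 116, 173 and 132 normalized counts in Spl/LN adjuvant alone to 1102 and 915 in VAT adjuvant alone, 7.20-fold higher (log2 difference 2.85 ± 0.21 SE, adjusted p = 2.98e-08). Dusp6, the cytoplasmic ERK phosphatase, had 42.4, 79.2 and 101 normalized counts in Spl/LN and 172 and 242 in VAT, a log2 difference of 1.48 ± 0.47 (adjusted p = 0.0386). The Dusp6 groups did not overlap, but its call was lost when 1 of 5 of the 11 libraries was left out. These were Spl/LN adjuvant alone replicate 1 (adjusted p = 0.111) or 2 (0.0705), VAT adjuvant alone replicate 1 or 2, and VAT adjuvant/Fat1562 replicate 2 (0.0528). Leaving out either VAT adjuvant alone library left 1 in that group.

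Dusp2, the nuclear phosphatase known for its abundance in activated leukocytes, went the other way. It had 724, 652 and 540 normalized counts in Spl/LN adjuvant alone and 268 and 243 in VAT adjuvant alone, 2.5-fold lower in VAT (log2 difference -1.32 ± 0.21 SE, adjusted p = 0.000242). Spry1, a Sprouty inhibitor, was scarce, with 27.0, 5.21 and 47.5 normalized counts in Spl/LN and 39.1 and 38.7 in VAT, and its groups overlapped. Its log2 difference was 0.54 ± 0.69 (95% interval -0.92 to 1.99, adjusted p = 0.668), and 22.6% of 38-base stretches of its exons also lie in an antisense transcript.

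With Fat1562 the same comparison of VAT with Spl/LN called 4 of the 7 members, all higher in VAT, against 15.0% of all genes, 8.26% higher and 6.73% lower. The median log2 difference of the members was 1.39, and -0.01 over all genes tested. Dusp1 was 14.4-fold higher in VAT (3.85 ± 0.14 SE, adjusted p = 9.33e-12) and Dusp4 7.16-fold higher (2.84 ± 0.15, adjusted p = 8.61e-10). Dusp4 had 144, 169 and 130 normalized counts in Spl/LN adjuvant/Fat1562 and 950, 1230 and 977 in VAT adjuvant/Fat1562.

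Dusp5 and Dusp10 were the other members called in these mice. Dusp5 had 236, 311 and 276 normalized counts in Spl/LN and 881, 763 and 709 in VAT (log2 difference 1.51 ± 0.15 SE, adjusted p = 9.73e-07), and Dusp10 had 176, 105 and 168 in Spl/LN and 452, 401 and 331 in VAT (1.39 ± 0.20, adjusted p = 7.61e-05). Dusp2 had 584, 690 and 408 in Spl/LN and 628, 496 and 704 in VAT, which overlapped (0.12 ± 0.17, 95% interval -0.25 to 0.49, adjusted p = 0.715). Dusp6 had 22.9, 32.1 and 81.7 in Spl/LN and 27.0, 47.8 and 81.1 in VAT (0.18 ± 0.45, adjusted p = 0.852), and Spry1 had 23.8, 3.21 and 23.2 in Spl/LN and 31.5, 40.7 and 31.9 in VAT (1.02 ± 0.64, adjusted p = 0.329).

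**Figure D3:**
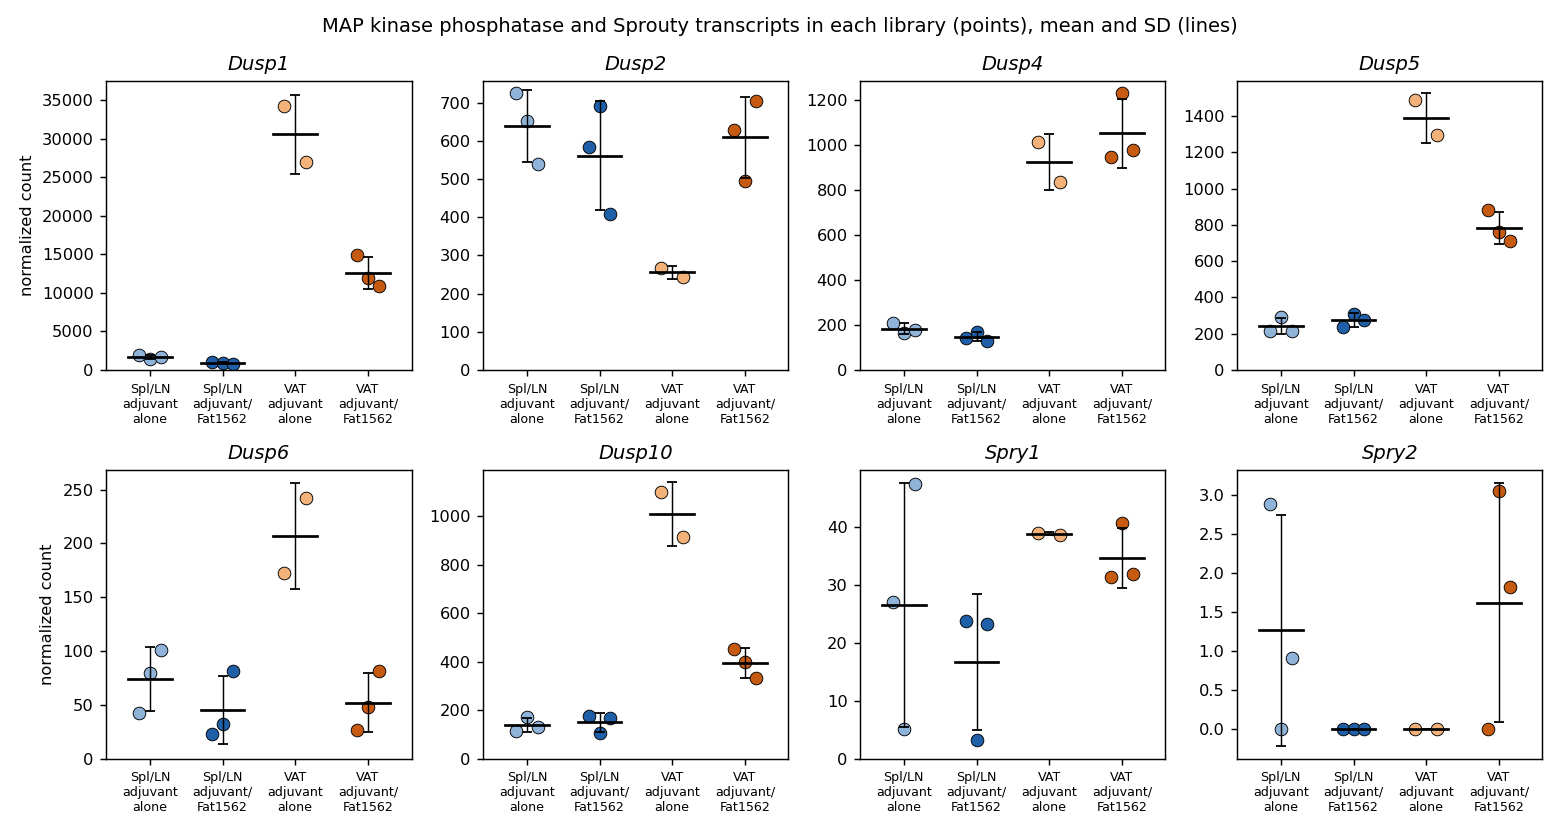
Normalized counts of the 8 members (vertical axes, linear, 1 panel per gene) in the 11 libraries (points), with the mean and SD of each group (lines), n = 3 except VAT adjuvant alone with n = 2. Dusp1, Dusp4, Dusp5 and Dusp10 are higher in every VAT library than in every Spl/LN library, Dusp2 is lowest in VAT adjuvant alone, and Spry2 has at most 3 counts.

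The effect of the peptide was then compared within each tissue. In VAT 5 of the 7 members passed, 1 higher and 4 lower with Fat1562, where 8.30% of all genes passed, 4.32% higher and 3.97% lower, and the median log2 difference of the members was -0.83 against 0.01 over all genes tested. Dusp1 was 2.43-fold lower (log2 difference -1.28 ± 0.14 SE, adjusted p = 1.21e-05), Dusp10 2.56-fold lower (-1.36 ± 0.20, adjusted p = 0.000315) and Dusp5 1.77-fold lower (-0.83 ± 0.15, adjusted p = 0.00207). For each of these 3 genes all 3 peptide libraries lay below both libraries of adjuvant alone. How many of all genes tested separated in this way was not counted, in this or any other comparison.

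Dusp6 was 3.94-fold lower with Fat1562 (-1.98 ± 0.47 SE, adjusted p = 0.0141), with no overlap between the groups. Its call was lost without VAT adjuvant/Fat1562 replicate 1 (adjusted p = 0.0581) or replicate 2 (0.0653). The call was also lost without VAT adjuvant alone replicate 2, which left 1 library in that group. Dusp2 was 2.38-fold higher (1.25 ± 0.21, adjusted p = 0.000994), its lowest peptide library of 496 normalized counts lying above the 268 of the higher control. Dusp4 gave 0.18 ± 0.15 (95% interval -0.14 to 0.51, adjusted p = 0.551), and Spry1 -0.16 ± 0.69 (adjusted p = 0.935).

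Markers of other cell types also moved in this comparison. Pecam1, an endothelial marker, was higher with the peptide in VAT, with 529 against 264 normalized counts (1.00 ± 0.17 SE, adjusted p = 0.00112), and in mice given adjuvant alone it was lower in VAT than the 491 of Spl/LN (-0.89 ± 0.17, adjusted p = 0.00124). The endothelial marker Cdh5 had at most 4 counts in any library. Itgam, a myeloid marker, averaged 29.1 (SD 26.4) against 3.12 (SD 4.41) normalized counts in VAT (adjusted p = 0.0497) and 26.8 in Spl/LN adjuvant alone. Of 3 macrophage markers tested, only 1 passed for the peptide in VAT, and Lyz2 averaged 2.88 against 14.5 there. Of 4 B cell markers tested, 2 were lower with the peptide in VAT. Ighm had 6018 and 28545 in VAT adjuvant alone and 6330 to 8485 with Fat1562, and Igkc 782 and 10320 against 192 to 340. The part of these markers in the members' differences was not tested.

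In Spl/LN the peptide called 1 member, Dusp1, where 3.98% of all genes passed, 2.58% higher and 1.40% lower, and the members' median was -0.33 on the log2 scale. Dusp1 was 1.91-fold lower with Fat1562 (-0.93 ± 0.13 SE, adjusted p = 0.000491), and all 3 peptide libraries lay below all 3 controls. The other 6 members overlapped between the groups, with log2 differences from -0.68 ± 0.45 for Dusp6 (adjusted p = 0.451) to 0.18 ± 0.15 for Dusp5 (adjusted p = 0.563).

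The tissues were set against each other in the test of the difference between the peptide's effect in VAT and that in Spl/LN, which called 3 of the 7 members, 1 higher and 2 lower, where 3.72% of all genes passed, 1.70% higher and 2.02% lower. The members' median difference was -0.35, against 0.01 over all genes tested. The difference was 1.44 ± 0.27 SE for Dusp2 (adjusted p = 0.00594), -1.46 ± 0.29 for Dusp10 (adjusted p = 0.00731) and -1.01 ± 0.21 for Dusp5 (adjusted p = 0.0123) on the log2 scale. Without VAT adjuvant alone replicate 1, which left 1 library in that group, only the call of Dusp2 was kept. Dusp10 then gave -1.31 and Dusp5 -0.90. Dusp1, called in both tissues, gave a difference of -0.35 ± 0.19 (95% interval -0.75 to 0.06, adjusted p = 0.388), and Dusp6 one of -1.29 ± 0.65 (adjusted p = 0.333).

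**Figure D4:**
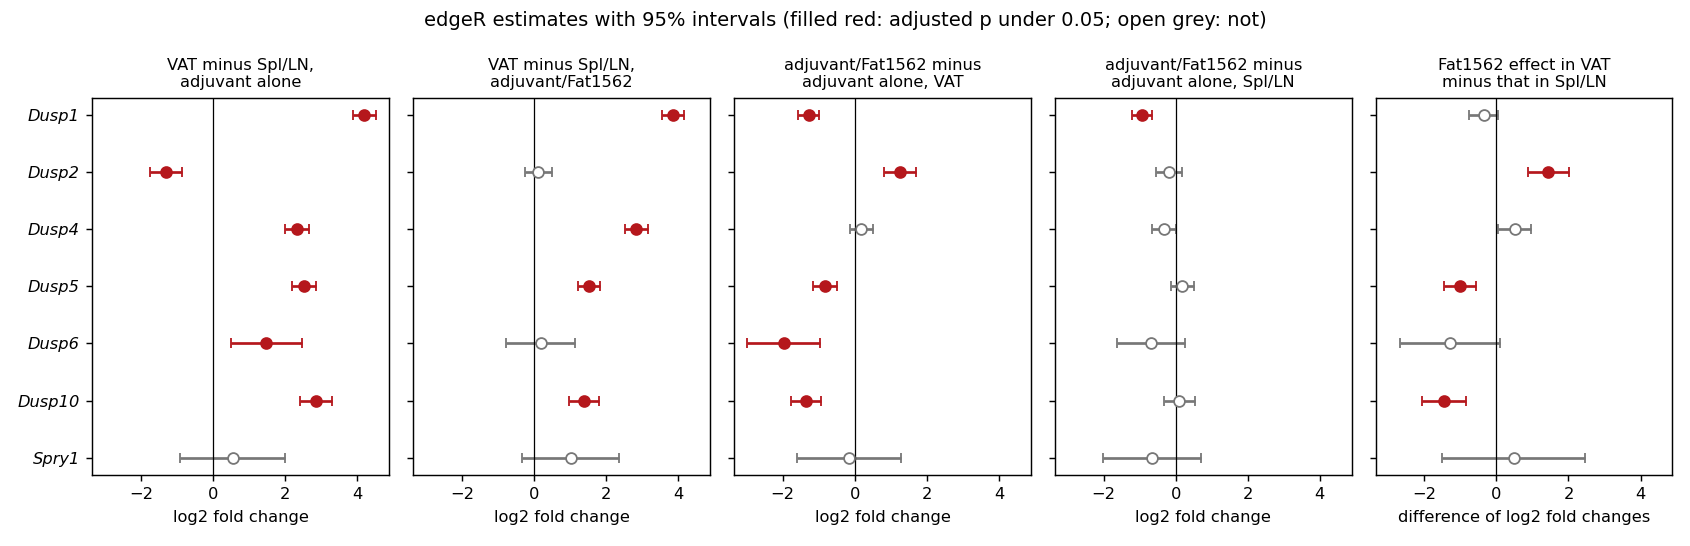
Log2 fold changes of the 7 members tested (horizontal axes) with 95% intervals in the 4 comparisons, and in the last panel the peptide's effect in VAT minus that in Spl/LN. Filled red points have an adjusted p under 0.05. Dusp2 lies on the opposite side of 0 from Dusp10 and Dusp5 for tissue with adjuvant alone, for the peptide in VAT and in the last panel.

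VAT adjuvant alone replicate 2, with its high Ighm and Igkc, was left out as a check. That group then held 1 library and had no spread of its own, which the fit drew from the other groups. Without replicate 2 the VAT difference was 4.35 for Dusp1 and -1.26 for Dusp2 in mice given adjuvant alone. The peptide's effect in VAT without replicate 2 was -1.44 for Dusp1 and 1.19 for Dusp2. The only calls of members lost without it were those of Dusp6 in these comparisons.

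The genes most like each member over the 11 libraries, by Pearson's r of log2(normalized count + 1), were Ppp1r15a with r = 0.996 and Dennd4a with 0.995 for Dusp1, and Hectd2 with 0.944 and Pacsin2 with 0.936 for Dusp2. For Dusp4 they were Slc43a2 with 0.987 and Ifrd1 with 0.986, and for Dusp10 Slco2b1 and Ell2, both with 0.980. For Dusp5 they were 4931406C07Rik with 0.992 and AC120347.2 with 0.988, for Dusp6 Usp25 with 0.916 and Zscan18 with 0.900, and for Spry1 Gm38319 with 0.895 and Gm26609 with 0.889. The 11 points fall into 4 groups by tissue and treatment and are not independent.

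Among the remaining MAP kinase phosphatases, Dusp7, Dusp8, Dusp9 and Dusp16, none passed between tissues in mice given adjuvant alone. With Fat1562, Dusp16 was higher in VAT (1.79 ± 0.36 SE, adjusted p = 0.00220) and Dusp7 lower (-1.02 ± 0.19, adjusted p = 0.00143). In VAT 1 of the 4 was lower and 1 higher with the peptide than with adjuvant alone: Dusp7, a cytoplasmic ERK phosphatase, went from 161 to 76.2 normalized counts (-1.08 ± 0.21 SE, adjusted p = 0.00391), and Dusp16, which prefers JNK and p38, went from 21.9 to 148 (2.73 ± 0.45, adjusted p = 0.000873). The peptide's effect on Dusp7 in VAT differed from that in Spl/LN (-1.29 ± 0.29, adjusted p = 0.0162), and none of these 4 genes passed for the peptide in Spl/LN.

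Of 11 atypical DUSPs, small phosphatases that lack the MAP kinase docking domain, 9 were tested, and their median log2 differences ran from -0.11 to 0.14 over the 4 comparisons. In mice given adjuvant alone 2 were higher in VAT, Dusp14 with 287 against 46.2 normalized counts (2.64 ± 0.30 SE, adjusted p = 6.72e-06) and Dusp3 with 170 against 49.3 (1.78 ± 0.29, adjusted p = 0.000356). With Fat1562 only Dusp14 passed, with 536 against 58.5 (3.18 ± 0.28, adjusted p = 3.02e-07). The peptide called 0 of the 9 in VAT and Dusp3 alone in Spl/LN, higher by 1.02 ± 0.27 (adjusted p = 0.0447). Of 5 further Sprouty and Spred genes 2 were tested, and Spred2, an inhibitor of RAS signalling, was higher in VAT with Fat1562 (1.16 ± 0.37, adjusted p = 0.0446).

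**Figure D5:**
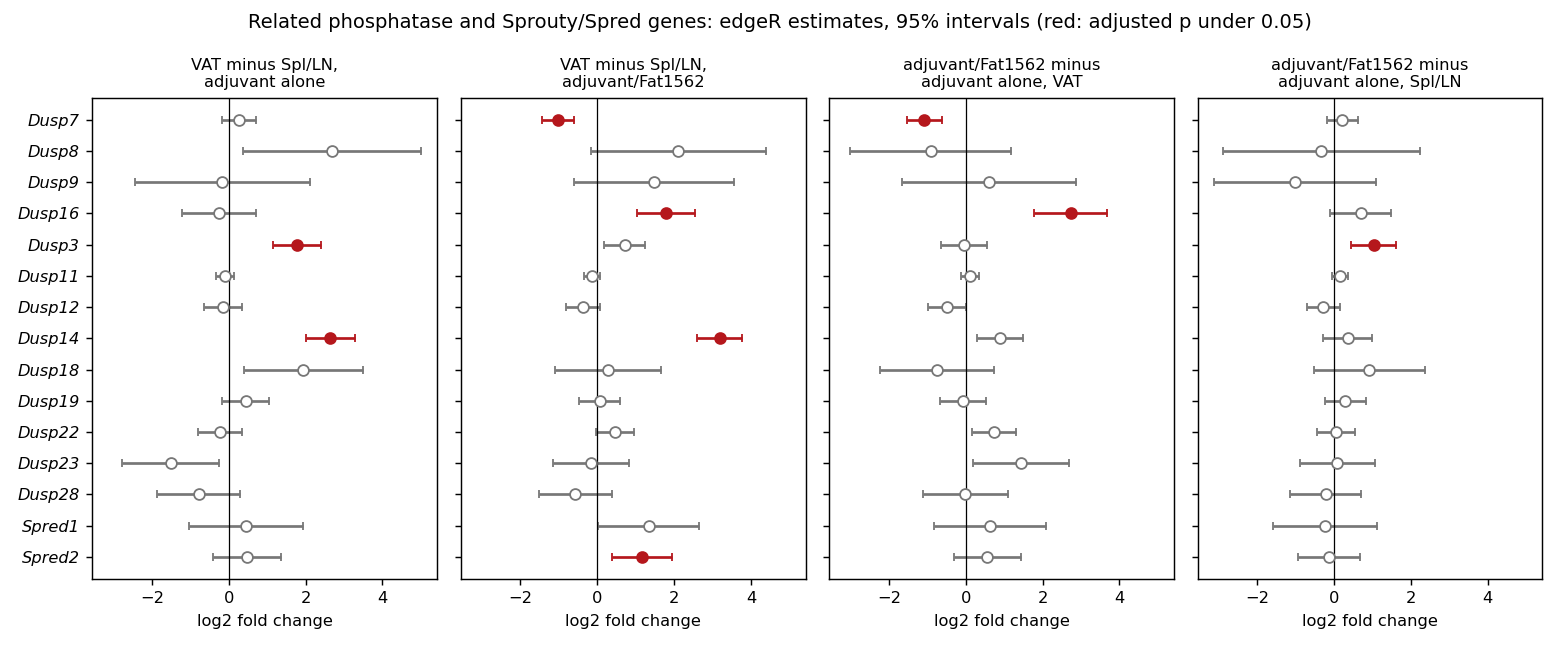
Log2 fold changes (horizontal axes) with 95% intervals of 15 related genes that were tested, in the 4 comparisons, red where the adjusted p is under 0.05. Dusp14 is higher in VAT in both treatments, and Dusp7 and Dusp16 lie on opposite sides of 0 for the peptide in VAT.

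Of 21 genes of the ERK cascade, from the adaptor LAT to ERK, with the downstream kinases RSK and MK2 (the latter a p38 target), 3 were higher and 4 lower in VAT of mice given adjuvant alone, 2 higher and 3 lower with Fat1562, and 1 higher and 4 lower with the peptide in VAT, with medians of 0.27, -0.05 and -0.18 on the log2 scale. In Spl/LN the peptide called 1, higher, with a median of 0.13. Of all genes tested, 9.09% were higher and 7.17% lower in VAT with adjuvant alone, and 8.26% and 6.73% with Fat1562. For the peptide, 4.32% were higher and 3.97% lower in VAT, and 2.58% and 1.40% in Spl/LN. These shares apply beside the counts of each list described here. Rasgrp1, an activator of RAS downstream of the T cell receptor, fell with the peptide in VAT (-0.69 ± 0.12 SE, adjusted p = 0.00134). Of 15 other inhibitors of RAS and ERK, 2 were higher and 3 lower in VAT with adjuvant alone, 2 higher and 6 lower with Fat1562, and 0 higher and 4 lower for the peptide in VAT; in Spl/LN 1 was higher, and the 4 medians ran from -0.07 to 0.01. Among them Errfi1, an inhibitor of the EGF receptor, was higher in VAT (3.03 ± 0.27, adjusted p = 3.67e-07) and fell with the peptide there (-0.96 ± 0.25, adjusted p = 0.0250).

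Of 16 genes of the JNK and p38 arm that were tested, 5 were higher and 0 lower in VAT with adjuvant alone, 4 higher and 1 lower with Fat1562, 0 higher and 3 lower for the peptide in VAT, and 1 higher and 2 lower for the peptide in Spl/LN, with medians of 0.15, 0.09, -0.19 and -0.08 on the log2 scale. Gadd45b, an activator of this arm, showed the lowest adjusted p between tissues, with 472 normalized counts in Spl/LN and 8010 in VAT of mice given adjuvant alone (4.09 ± 0.16 SE, adjusted p = 1.21e-11). With the peptide it fell in VAT (-1.38 ± 0.15, adjusted p = 1.24e-05) and in Spl/LN (-0.55 ± 0.15, adjusted p = 0.0482).

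Genes that respond to ERK were described next, immediate early genes that it induces together with the Elk factors and Srf through which it acts. Of 19 tested, 13 were higher and 2 lower in VAT with adjuvant alone, 11 higher and 3 lower with Fat1562, 0 higher and 7 lower for the peptide in VAT, and 2 higher and 3 lower for the peptide in Spl/LN, with medians of 2.17, 1.74, -0.74 and 0.14 on the log2 scale. Junb, an AP-1 subunit, had 3497 normalized counts in Spl/LN and 40218 in VAT of mice given adjuvant alone (3.52 ± 0.08 SE, adjusted p = 7.88e-15) and fell with the peptide in VAT (-1.17 ± 0.08, adjusted p = 4.83e-08). Egr1 fell with the peptide in VAT (-2.23 ± 0.20, adjusted p = 2.13e-06) but rose in Spl/LN (0.92 ± 0.18, adjusted p = 0.00784), and this difference between tissues passed (-3.16 ± 0.27, adjusted p = 8.53e-06).

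Genes known to be induced when tissue is dissociated were described as well. Of 20, 8 of which are also in the list of ERK response genes, 16 were higher and 0 lower in VAT with adjuvant alone, 15 higher and 1 lower with Fat1562, 0 higher and 10 lower for the peptide in VAT, and 4 higher and 2 lower for the peptide in Spl/LN, with medians of 2.56, 1.07, -0.73 and 0.44. Their summed level ran from 16211 to 16947 normalized counts in Spl/LN adjuvant alone and from 17044 to 24663 in Spl/LN adjuvant/Fat1562, against 95059 to 109028 in VAT adjuvant alone and 46983 to 60943 in VAT adjuvant/Fat1562. Much of the VAT sums was Junb and Nr4a1, with means of 40218 and 20413 in adjuvant alone and 17824 and 9950 with Fat1562. The heat shock genes of the list other than Dnaja1, among them Hspa1a, averaged higher with Fat1562 in VAT, none with a call. Hsph1 averaged 510 in VAT adjuvant alone and 1029 (SD 674) in VAT adjuvant/Fat1562, and Dnaja1 2502 and 1640. Dusp1, Dusp5, Dusp6 and Dusp10 were higher in VAT adjuvant alone than in VAT adjuvant/Fat1562. Dusp2 went the other way, from 256 to 609 normalized counts, and Dusp4 averaged 926 and 1052 without a call. The part of dissociation in the members' levels was not tested.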

How the data were processed

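RNA-seq libraries were made by a Smart-seq2 protocol, which marks no strand, and read as 38-base pairs. The processing notes name STAR 2.5.4, featureCounts and mm10; the annotation and strand setting are not given in the sources used here. The authors deposited raw counts per gene symbol for 11 libraries, and no molecular identifiers are named, and tests cover the spread between libraries, which the methods call biological replicates without saying that each is 1 mouse. The filter on low counts kept a gene when the mean of any group exceeded 10, counts being first scaled to a common library total. edgeR 4.0.16 in R 4.3.3 fitted 1 quasi-likelihood model to the 4 groups with TMM normalization and a prior count of 0.125. The SE is the log2 fold change over the root of F. Adjusted p-values are Benjamini-Hochberg over all genes tested. The common biological coefficient of variation was 19.1%. The fit was tested on simulated data. No 2 libraries agreed within sampling noise, with chi-square over degrees of freedom of 5.27 to 11.0 within groups. Exon lengths are from GENCODE on GRCm38. Members and lists were chosen with earlier results of these data known. The genes named are the 8 members, the 2 genes most like each, Foxp3 and Cd4 as checks, and, of each list, called genes, at most 4 by lowest adjusted p. Ighm, Igkc, Ms4a1, Cd79a, Cd79b, Pecam1, Cdh5, Itgam, Lyz2, Hspa1a, Hsph1 and Dnaja1 were named after their values were seen. Alternatives were other filters, RLE and quantile normalization (limma 3.58.1), DESeq2 1.42.0, the compared groups alone, a replicate block and leaving out each library.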

Additional observations from a re-analysis of the deposited data

Results flagged for a closer look

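The effect of the peptide differed between the tissues for 3 members by the interaction term of the edgeR fit. Dusp2 differed by 1.44 on the log2 scale, being higher with Fat1562 in VAT and overlapping in Spl/LN. Dusp10 differed by -1.46 and Dusp5 by -1.01, both lower with Fat1562 in VAT and overlapping in Spl/LN. Groups of 2 or 3 libraries were too small for a test of outlying samples.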

How the results depend on the processing

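The counts of members called were 6, 4, 5, 1 and 3 in the 5 comparisons, and with 1 library left out 5 to 6, 4 to 4, 4 to 5, 1 to 1 and 1 to 3. Of the fold changes, 367 kept their direction and side of the threshold when 1 library was left out, 10 lost the call and 8 turned sign, none of which was called: Dusp2 (-0.062 to 0.30) and Dusp6 (-0.30 to 0.94) between tissues with Fat1562, Dusp10 (-0.026 to 0.30) and Spry1 (-1.12 to 0.070) for the peptide in Spl/LN, and Spry1 in the difference between tissues (-0.23 to 0.96); the cause was not tested. Deviations from group means correlated at -0.040 to 0.055 between same-numbered libraries and at -0.058 to 0.040 between others. Between VAT and Spl/LN of the same treatment, same-numbered libraries gave 0.037 and 0.030 (adjuvant alone) and 0.055, 0.030 and 0.030 (Fat1562). Differently numbered ones there ran from -0.058 to 0.028. Means of 2 or 3 libraries cannot show whether such libraries came from the same mice, and the main fit paired none. With the replicate block 4 members were called in the difference between tissues, Dusp6 added at -1.70 (adjusted p = 0.0239). Spry1 was not tested with a mean above 50 or a coefficient of variation under 0.7. All genes called for the peptide in Spl/LN numbered 515, and 793 by DESeq2 or without a filter; in the difference between tissues they numbered 481, and 789 by DESeq2. With 1 library left out, all genes called fell most to 1259 of 2102 for tissue with adjuvant alone (without VAT adjuvant alone replicate 1; 1367 without replicate 2), 1289 of 1938 for tissue with Fat1562 (without VAT adjuvant/Fat1562 replicate 2), 508 of 1073 for the peptide in VAT (without VAT adjuvant alone replicate 2; 545 without replicate 1 and 623 without VAT adjuvant/Fat1562 replicate 2), 190 of 515 for the peptide in Spl/LN (without Spl/LN adjuvant/Fat1562 replicate 2; 334 and 320 without replicates 1 and 3) and 240 of 481 for the difference between tissues (without VAT adjuvant alone replicate 1; 287 without its replicate 2, 310 without Spl/LN adjuvant/Fat1562 replicate 2 and 276 without VAT adjuvant/Fat1562 replicate 2). Under quantile normalization the balance of all calls turned, to 1141 higher and 1293 lower for tissue with adjuvant alone, 972 and 1063 with Fat1562, and 285 and 243 for the difference between tissues. Per kb of the longest transcript, Dusp1 and Dusp2 changed places in Spl/LN adjuvant/Fat1562, Dusp4 and Dusp10 in VAT adjuvant alone and Dusp5 and Dusp2 in VAT adjuvant/Fat1562. In Spl/LN adjuvant alone, Dusp1 had 722 and Dusp2 395 normalized counts by that length, against 504 and 319 per kb of exon. The shares and ratios of members were computed per kb of exon only. Depth limits Spry1 and Spry2. VAT adjuvant alone had 2 libraries, so each fit without 1 of them left 1 library in that group.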
